A study of Homo sapiens with 12 samples.

Results

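The cells' machinery for copying DNA and for making the thymidine and deoxyribonucleotides it consumes was followed here through 50 genes in HD-MB03, a human cell line grown from a medulloblastoma whose MYC gene is amplified, after treatment with entinostat, an inhibitor of class I histone deacetylases. The genes were listed by name from their known part in replication, as the origin recognition complex, the helicase and the factors that load and activate it, the polymerases, the clamp and its loader, the single-strand binding protein, the enzymes that join Okazaki fragments, and 5 enzymes of nucleotide supply. All 50 were found among the 19775 genes that the arrays name, through 92 of the 54613 probe sets tested. Cells had received 1 µM entinostat for 48 h, its solvent DMSO for 48 h, 1 µM entinostat for 24 h or DMSO for 24 h, with 3 biological replicates in each of the 4 groups and 1 array per replicate. The DMSO arrays carry the treatment label untreated. All groups share the line and its amplified MYC, and a single line limits what the values can stand for.

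Before S phase, the origin recognition complex, CDC6 and CDT1 load the ring-shaped MCM helicase on DNA in an inactive form, a step called licensing. The kinases CDC7 with DBF4 and the cyclin-dependent kinases then turn it into the active helicase by adding CDC45 and the GINS complex. Polymerase alpha with primase starts each strand, polymerases epsilon and delta extend the leading and the lagging strand, the RFC complex loads the PCNA ring that holds the polymerases on DNA, and RPA covers single strands. Many of these genes are transcribed in waves at the boundary of G1 and S phase under E2F factors, and fast-growing embryonal tumours such as medulloblastoma usually carry much of their mRNA.

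The intensities came normalized between arrays on a linear scale, and log2 was taken of them. Their median was 80.6 to 81.8 per array and their minimum 36.7 to 39.1, so a background is left in each value and log2 fold changes of dim probe sets are smaller than the ratio of the RNA levels. The members were mostly bright, since 44 of 50 (88%) had a mean log2 intensity of at least 8, against 32.7% of all genes, and their median was 9.79, against 6.85. Of 8 genes listed as marks of group 3 medulloblastoma, MYC had 10900 to 13272 and OTX2 5433 to 7142 over the 12 arrays, IMPG2, NRL and GABRA5 were at 193 or more, and NPR3, EYS and CRX did not pass 147. The 10 marker genes of leukocytes, endothelium, astrocytes and fibroblasts did not pass 113. The log2 difference between the 3' and the 5' probe set of ACTB, a sign of RNA quality, was -0.16 to -0.12 in entinostat and -0.10 to -0.03 in DMSO at 48 h, and overlapped at 24 h, with -0.14 to -0.05 in entinostat and -0.14 to -0.08 in DMSO. That of GAPDH overlapped at both times, with -0.12 to -0.03 in entinostat and -0.12 to -0.11 in DMSO at 48 h, and -0.18 to -0.10 in entinostat and -0.12 to -0.10 in DMSO at 24 h. Their part in the results was not tested.

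At 48 h, 32 of the 50 genes were lower in entinostat than in DMSO and 2 were higher, at a Benjamini-Hochberg adjusted p (BH-adjusted p) under 0.05 from limma, and 16 did not pass. Of all genes, 16.6% were lower and 17.3% higher at this threshold. The members' median log2 fold change was -0.31, against -0.02 for all genes, and 42 of 50 values lay below 0. At 24 h, 18 members were lower and 6 higher, with a median of -0.15 against -0.02, where 15% of all genes were lower and 18.2% higher. Over both times in an additive model 26 were lower and 4 higher, against 19.7% and 21% of all genes. As bright genes pass more often, the members at a mean log2 of 8 or more were also set beside all genes at that level. Of these members 65.9% were lower at 48 h, against 30.8% of genes, and 36.4% at 24 h, against 27.6%. In bulk RNA, fewer cells in S phase and less of these mRNAs per cell cannot be told apart.

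**Figure D1:**
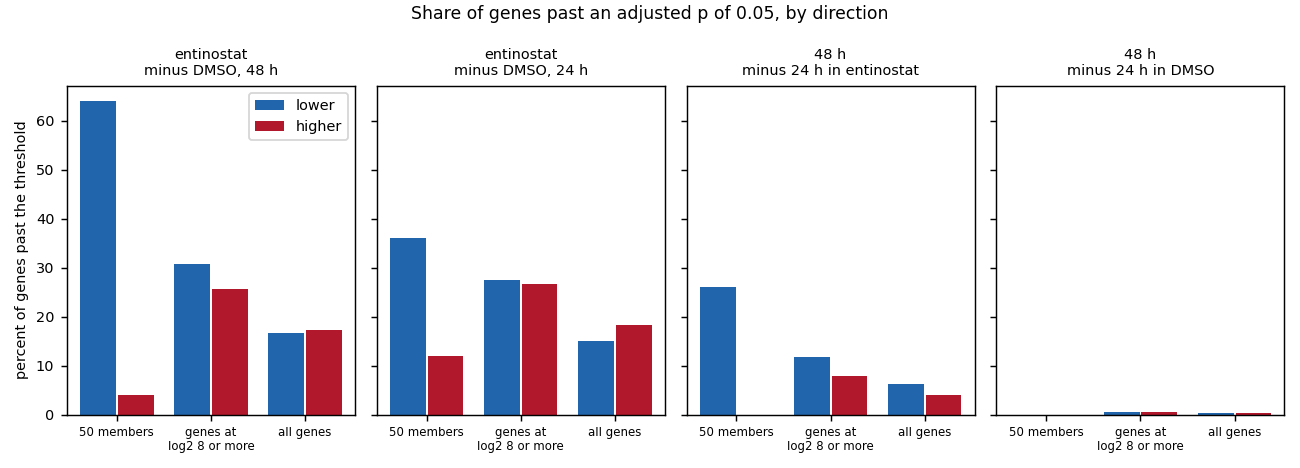
Percent of genes past an adjusted p of 0.05 from limma, lower (blue) and higher (red), for the 50 members, for genes at a mean log2 intensity of 8 or more, and for all genes, in 4 comparisons. The blue bar of the members stands at 64% at 48 h, against 30.8% for bright genes, while in the comparison of 48 h with 24 h in DMSO no member passed.

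The bars of the plot of shares put the members' share of lower genes at 64% at 48 h and at 36% at 24 h, and their share of higher genes below that of all genes at both times (4% against 17.3% at 48 h, 12% against 18.2% at 24 h). At 48 h the 3 entinostat arrays lay wholly below the 3 DMSO arrays for 35 members and wholly above for 5, and at 24 h for 21 and 7. Among all genes these numbered 4607 and 4326 at 48 h, and 4628 and 4559 at 24 h. Each array's mean log2 intensity over the members was 9.60 to 9.66 in entinostat and 9.93 to 9.95 in DMSO at 48 h, and 9.78 to 9.81 in entinostat and 9.95 to 9.97 in DMSO at 24 h. The changes were modest in size, as were those of most genes that passed. On the probe set used for each gene, MCM5 at 24 h was the 1 member to reach a log2 fold change of 1 in either direction. Few genes did so in the whole set as well, 789 of 19775 at 48 h and 731 at 24 h. Among genes past the threshold, the median absolute log2 fold change at 48 h was 0.460 for members and 0.456 for all genes. At 24 h it was 0.394 and 0.440.

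**Figure D2:**
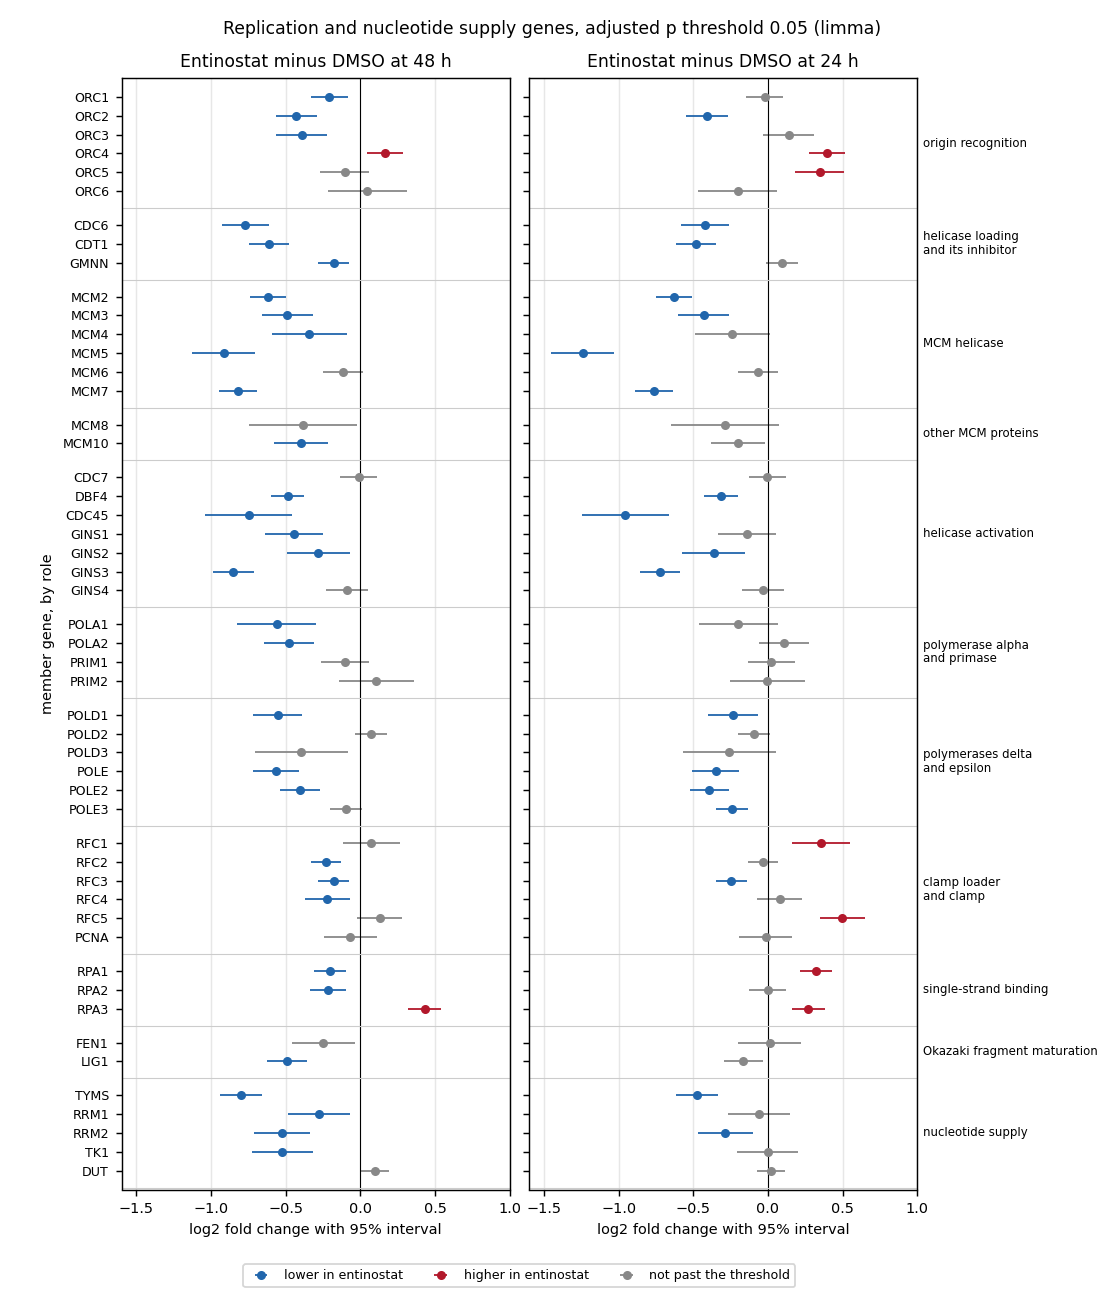
Log2 fold change of entinostat over DMSO with its 95% interval (x axis) for each of the 50 members by role (y axis), at 48 h (left) and at 24 h (right). Points are blue where a gene was lower, red where it was higher and grey where it did not pass, and 17 genes are blue in both panels.

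The plot of the members' fold changes orders them by role. Across both times, 17 genes were lower at 48 h and at 24 h, 14 were lower at 48 h and did not pass at 24 h, and POLE3 was lower at 24 h alone. Such joint counts were not made over all genes. ORC4 and RPA3 were higher at both times, and ORC5, RFC1 and RFC5 did not pass at 48 h and were higher at 24 h. RPA1 was lower at 48 h and higher at 24 h. The remaining 12 genes, ORC6, MCM6, MCM8, CDC7, GINS4, PRIM1, PRIM2, POLD2, POLD3, PCNA, FEN1 and DUT, passed at neither time, though MCM8 and POLD3 were lower over both times (log2 fold change -0.33 each). Of 12 refits, each without 1 array, 8 lost this call of MCM8 and 4 that of POLD3. Passing at one time and not at the other does not show that the effects differ, and that difference was tested on its own, as given after the roles.

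Promoter sequence was at hand in RefSeq (GRCh38.p14) for 44 members, as the 250 bases before and the 50 after the first listed transcription start. MCM4, MCM5, GINS4, POLD3, RPA2 and RPA3 were not matched. Sites of the E2F type, searched on both strands as TTTCCCGC, TTTCGCGC, TTTGCCGC and TTTGGCGC, were found in 19 of the 44 windows (43.2%), against 3.33% of the 27305 genes with a window and 4.36% of those that the arrays also name. They stood in 16 of 29 windows of members that were lower at 48 h and in 3 of 14 windows of members that did not pass. The CCAAT box, searched on both strands as CCAAT, was in 52.3% of members and 35.7% of all genes, the E-box CACGTG in 13.6% and 7.43%, and the cell cycle homology element, searched on both strands as TTTGAA, in 4.55% and 15.4%. A match of letters is a description and not a bound site. To show the letters, 8 of the sites are printed with 6 bases on each side, for the 8 holders with the lowest log2 fold changes at 48 h, each read in the direction that puts the TTT first, with the match in capitals:
GINS3: aactcgTTTCCCGCgcccgg
MCM7: gcgacgTTTCGCGCcaattt
TYMS: gcgcctTTTCCCGCggccgt
CDC6: ttcggaTTTGGCGCgagcgc
MCM2: accactTTTCGCGCgaaacc
CDT1: gccaaaTTTCCCGCgggcgc
POLE: gagaaaTTTGGCGCgctccc
POLA1: cgcgcgTTTGGCGCcctgtg

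These sites lie at chr16:58392460-58392479 (GINS3, minus strand), chr7:100101393-100101412 (MCM7, minus strand), chr18:657608-657627 (TYMS, minus strand), chr17:40287880-40287899 (CDC6, plus strand), chr3:127598407-127598426 (MCM2, plus strand), chr16:88803748-88803767 (CDT1, minus strand), chr12:132687347-132687366 (POLE, plus strand) and chrX:24693775-24693794 (POLA1, minus strand). The first base of the match stood within 39 bases of the start in 7 of the 8 genes, and 137 bases before it in POLA1. TTTCCCGC was the match in GINS3, TYMS and CDT1, TTTGGCGC in CDC6, POLE and POLA1, and TTTCGCGC in MCM7 and MCM2. In MCM2 the letters TTTCGCGC run into GAAA, so that the opposite strand holds an overlapping match.

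Origin recognition, in which ORC1 to ORC6 mark the sites where replication can start, was split. ORC1, ORC2 and ORC3 were lower at 48 h, ORC4 was higher, and ORC5 and ORC6 did not pass. ORC2, a core subunit, had the lowest log2 fold change of the group. Its intensities were 305, 286 and 297 in entinostat, against 400.1, 366 and 431 in DMSO at 48 h, and 298, 299.6 and 314 in entinostat, against 394, 423 and 394 in DMSO at 24 h. No entinostat array reached a DMSO array at either time, and the log2 fold changes were -0.43 at 48 h (standard error 0.06, BH-adjusted p = 0.000242) and -0.41 at 24 h (BH-adjusted p = 0.000376). ORC4, another core subunit, went the other way. At 48 h it had 915, 905 and 951 in entinostat, against 878, 765 and 834 in DMSO, apart but close, and the log2 fold change of 0.16 passed narrowly (BH-adjusted p = 0.0459), but 11 of 12 refits, each without 1 array, lost this call. At 24 h it had 1029, 1059 and 1035 in entinostat, against 799.7, 785 and 787 in DMSO, a log2 fold change of 0.40 (standard error 0.06, BH-adjusted p = 0.000156). Its other probe set gave 0.11 at 48 h and 0.10 at 24 h, and neither passed.

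ORC5 had -0.11 at 48 h (BH-adjusted p = 0.383). At 24 h its intensities were 942, 973 and 911 in entinostat, against 746, 796 and 682 in DMSO, with all 3 entinostat arrays above those in DMSO and a log2 fold change of 0.35 (BH-adjusted p = 0.00412). ORC1, the subunit that cycles in many cells, fell at 48 h by 0.21 on the log2 scale (BH-adjusted p = 0.0149) and had -0.02 at 24 h. ORC3 fell by 0.39 at 48 h and had 0.14 at 24 h. ORC6, which joins the other subunits loosely, varied widely in entinostat at 24 h, with 1247, 979 and 838, and passed at neither time.

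The loading factors fell at both times. CDC6, the ATPase that brings the helicase to the origin complex, had 471, 526 and 556 in entinostat, against 912, 878 and 853 in DMSO at 48 h. At 24 h it had 677, 643 and 684 in entinostat, against 969, 831 and 887 in DMSO. The groups did not overlap at either time, and the 48 h entinostat arrays lay below the 24 h entinostat arrays too. Its log2 fold changes were -0.77 at 48 h (standard error 0.07, BH-adjusted p = 5.47e-06) and -0.42 at 24 h (BH-adjusted p = 0.000795). CDT1, the second loading factor, fell by 0.61 on the log2 scale at 48 h and by 0.48 at 24 h (BH-adjusted p = 9.98e-06 and 8.38e-05). GMNN encodes geminin, the inhibitor that binds CDT1 after S phase has begun. It was lower at 48 h, with 1341, 1337 and 1419 in entinostat, against 1514, 1540.4 and 1585 in DMSO, a log2 fold change of -0.18 (BH-adjusted p = 0.0144). At 24 h all its entinostat arrays lay above the DMSO arrays, but the value of 0.09 did not pass (BH-adjusted p = 0.199).

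The helicase itself held the lowest log2 fold change of all members at each time, that of MCM5. Of its 6 subunits, MCM2 to MCM7, all but MCM6 were lower at 48 h, and MCM2, MCM3, MCM5 and MCM7 at 24 h, with group medians of -0.55 and -0.53. MCM5 had 434, 525 and 493 in entinostat, against 977, 841 and 919 in DMSO at 48 h, and 546, 423 and 471 in entinostat, against 1174, 1109 and 1103 in DMSO at 24 h. Every entinostat array lay below every DMSO array by a wide margin, and the level in entinostat was about the same at both times, while DMSO was lower at 48 h than at 24 h by a difference that did not pass (log2 -0.31, BH-adjusted p = 0.218). The log2 fold changes of MCM5 were -0.92 at 48 h (standard error 0.10, BH-adjusted p = 1.35e-05) and -1.24 at 24 h (standard error 0.10, BH-adjusted p = 1.23e-06).

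MCM7 had 1480.0, 1396 and 1541 in entinostat, against 2608, 2614 and 2566 in DMSO at 48 h, and 1504, 1533 and 1709 in entinostat, against 2720.4, 2653 and 2661 in DMSO at 24 h. Its entinostat levels stood far under those in DMSO with little spread, and the log2 fold changes were -0.82 (BH-adjusted p = 5.64e-07) and -0.76 (BH-adjusted p = 1.16e-06). MCM2 gave -0.62 and -0.63, and MCM3 -0.49 and -0.43, for 48 h and 24 h in turn. On the probe set used, MCM4 had -0.34 at 48 h (BH-adjusted p = 0.0472), where its arrays overlapped and 11 of 12 refits lost the call. At 24 h it had -0.24 (BH-adjusted p = 0.171). Over both times it had -0.29, a call kept in all 12 refits and lost at a threshold of 0.01. Further probe sets with -0.37 and -0.41 at 48 h passed without overlap (BH-adjusted p = 0.00282 and 0.0038). Those with -0.31 and -0.04 did not pass, and no probe set of MCM4 passed at 24 h. MCM6 had -0.12 at 48 h (95% interval -0.25 to 0.02) and -0.07 at 24 h (-0.20 to 0.07), so a fall of the size seen in MCM7 lies outside the intervals of this probe set. Its other probe set varied more, with -0.16 at 48 h (-0.58 to 0.27) and -0.36 at 24 h (-0.78 to 0.07). Neither value passed, and the interval at 24 h includes the log2 fold change of MCM7.

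The 250 bases before the start of MCM7 lie at chr7:100101398-100101647 on the minus strand and hold 3 kinds of the motifs searched. They are shown since MCM7 had the lowest log2 fold change over both times (-0.79) after CDC45 among members with a window. Capitals mark the E2F-type site GCGGGAAA 187 bases before the start and TTTCGCGC 9 bases before it, CCAAT boxes in the reverse reading ATTGG at 95 and 51 bases before it, and the E-box CACGTG at 25 bases before it:
MCM7: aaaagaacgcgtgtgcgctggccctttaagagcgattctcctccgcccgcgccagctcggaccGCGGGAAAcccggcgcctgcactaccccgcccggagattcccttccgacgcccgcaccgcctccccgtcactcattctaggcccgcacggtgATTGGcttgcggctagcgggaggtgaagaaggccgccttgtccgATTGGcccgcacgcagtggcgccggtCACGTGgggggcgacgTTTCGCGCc

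Among the MCM proteins outside the 6-subunit ring, MCM10, which helps to activate the helicase and recruits polymerase alpha, fell at 48 h. Its intensities were 694, 642 and 705 in entinostat, against 973, 806 and 917 in DMSO at 48 h, with no overlap and a log2 fold change of -0.40 (BH-adjusted p = 0.00303). At 24 h they were 666, 803 and 777 in entinostat, against 865, 825 and 879 in DMSO, with -0.20 (BH-adjusted p = 0.112). MCM8, a helicase subunit known from homologous recombination, had -0.38 and -0.29, and passed at neither time, with wide 95% intervals (-0.74 to -0.02 at 48 h and -0.65 to 0.07 at 24 h).

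Helicase activation was lower at both times in 4 of 7 genes. CDC45, the activating subunit, had 308, 217 and 218 in entinostat, against 393, 380.1 and 462 in DMSO at 48 h. At 24 h it had 278, 270.2 and 291 in entinostat, against 547, 618 and 472 in DMSO. The spread between arrays was wider than for MCM5 and MCM7, but no groups overlapped. The log2 fold changes of CDC45 were -0.75 at 48 h (standard error 0.13, BH-adjusted p = 0.00101) and -0.96 at 24 h (BH-adjusted p = 0.000165). GINS3, a subunit of the GINS complex, had 299, 325 and 312 in entinostat, against 536, 589 and 567 in DMSO at 48 h, and 355, 339.6 and 393 in entinostat, against 609, 589 and 594 in DMSO at 24 h. Again all entinostat arrays lay below those in DMSO, with -0.85 (BH-adjusted p = 7.22e-07) and -0.72 (BH-adjusted p = 3.14e-06).

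The other subunits of GINS differed in size of change. GINS1 had -0.45 at 48 h (BH-adjusted p = 0.00232) and -0.14 at 24 h (BH-adjusted p = 0.319). GINS2 had -0.28 at 48 h (BH-adjusted p = 0.0489), which 9 of 12 refits lost, and -0.36 at 24 h (BH-adjusted p = 0.0137). GINS4 passed at neither time, with -0.09 and -0.03. DBF4, the regulatory subunit of the kinase that phosphorylates the MCM ring, fell by 0.49 on the log2 scale at 48 h and by 0.31 at 24 h (BH-adjusted p = 1.35e-05 and 0.000518). CDC7, the catalytic subunit of the same kinase, had -0.01 at 48 h (95% interval -0.14 to 0.11) and -0.0047 at 24 h (-0.13 to 0.12).

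The window of CDC45 lies at chr22:19479670-19479919 on the plus strand. It is shown since its gene had the lowest log2 fold change over both times among members with a window (-0.85), ahead of MCM7 (-0.79). Its letters match none of the 4 E2F-type sites searched. The letters tttggcgg near its end differ from the searched TTTGGCGC in the last base alone, so a related site is not excluded. Capitals mark the CCAAT boxes, which start 112, 102, 64 and 44 bases before the start, the one at 64 as ATTGG:
CDC45: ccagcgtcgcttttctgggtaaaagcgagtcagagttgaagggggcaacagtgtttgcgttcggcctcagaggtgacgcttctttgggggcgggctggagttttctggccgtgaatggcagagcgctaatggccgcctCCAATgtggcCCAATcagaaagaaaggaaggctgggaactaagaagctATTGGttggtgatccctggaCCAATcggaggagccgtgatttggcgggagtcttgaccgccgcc

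Polymerase alpha was lower at 48 h and the primase that travels with it did not pass. POLA1, the catalytic subunit, had 385, 443 and 429 in entinostat, against 639, 646 and 568 in DMSO at 48 h, without overlap and with a log2 fold change of -0.56 (standard error 0.12, BH-adjusted p = 0.00388). At 24 h it had 513, 606 and 492 in entinostat, against 622, 733 and 506 in DMSO, overlapping, with -0.20 (BH-adjusted p = 0.295). POLA2, the accessory subunit, had 322, 356 and 291 in entinostat, against 476, 438 and 429 in DMSO at 48 h. Its arrays were apart at that time, with -0.48 (BH-adjusted p = 0.000468). At 24 h POLA2 had 479, 508 and 525 in entinostat, against 491, 473 and 441 in DMSO, which overlapped, with 0.11 (BH-adjusted p = 0.387). PRIM1, the catalytic primase subunit, had -0.10 and 0.02, and PRIM2, the large subunit, 0.11 and -0.0043. A further 4 probe sets of PRIM2 are shared with another symbol and were not used.

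Of the replicative polymerases, the catalytic subunits of delta and epsilon were lower at both times. POLE, which copies the leading strand, had 178, 159 and 190.1 in entinostat, against 257, 269.6 and 252 in DMSO at 48 h, and 182, 203 and 209 in entinostat, against 250.5, 258 and 248 in DMSO at 24 h. Both times were without overlap, with log2 fold changes of -0.57 (BH-adjusted p = 6.51e-05) and -0.35 (BH-adjusted p = 0.00271). POLD1, which copies the lagging strand, fell by 0.56 on the log2 scale at 48 h (BH-adjusted p = 0.00013) and by 0.23 at 24 h (BH-adjusted p = 0.0408), where the call was lost in 6 of 12 refits. POLE2, an accessory subunit, fell by 0.41 and by 0.39. POLE3, a histone-fold subunit, had -0.10 at 48 h (BH-adjusted p = 0.18) and -0.24 at 24 h (BH-adjusted p = 0.00266). POLD2 and POLD3, accessory subunits of delta, passed at neither time, with 0.07 and -0.40 at 48 h.

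The clamp loader was mixed at 24 h. RFC5, one of its small subunits, had 1034, 1009 and 1032 in entinostat, against 905, 914 and 997 in DMSO at 48 h, and 1195, 1192 and 1304 in entinostat, against 795, 865 and 955 in DMSO at 24 h. All entinostat arrays lay above those in DMSO at both times, but the log2 fold change of 0.13 at 48 h did not pass (BH-adjusted p = 0.232) and that of 0.50 at 24 h did (standard error 0.07, BH-adjusted p = 0.00017). RFC3, another small subunit, went the other way. It had 1371, 1400.3 and 1319 in entinostat, against 1525, 1562 and 1545 in DMSO at 48 h, and 1378, 1282 and 1332 in entinostat, against 1602, 1587 and 1538 in DMSO at 24 h. The groups were apart at both times though the differences were small, at -0.18 (BH-adjusted p = 0.0144) and -0.24 (BH-adjusted p = 0.00218). With the mean of the 3 probe sets of RFC3 the log2 fold changes were -0.15 and -0.17, and neither passed.

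RFC1, the large subunit, had 0.07 at 48 h and was higher at 24 h, at 0.36 (BH-adjusted p = 0.00953). RFC2 and RFC4 were lower at 48 h, at -0.23 and -0.22 (BH-adjusted p = 0.00238 and 0.0325), and had -0.03 and 0.08 at 24 h. The call of RFC4 was lost in 5 of 12 refits. PCNA, the clamp itself, had 3816, 4670.2 and 4293 in entinostat, against 4181, 4869 and 4334 in DMSO at 48 h, and 4290.1, 4347 and 4504 in entinostat, against 4283, 4768 and 4251 in DMSO at 24 h. These arrays overlapped at both times, with -0.07 (95% interval -0.25 to 0.11) and -0.02 (-0.19 to 0.16). Its promoter window holds an E2F-type site, as do those of MCM6 and MCM8, which passed at neither time.

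The window of RFC5, at chr12:118016453-118016702 on the plus strand, is shown as the member with the highest log2 fold change over both times (0.31) among those with a window. Only 1 match stands in it, a CCAAT box read as ATTGG at 239 bases before the start, in capitals:
RFC5: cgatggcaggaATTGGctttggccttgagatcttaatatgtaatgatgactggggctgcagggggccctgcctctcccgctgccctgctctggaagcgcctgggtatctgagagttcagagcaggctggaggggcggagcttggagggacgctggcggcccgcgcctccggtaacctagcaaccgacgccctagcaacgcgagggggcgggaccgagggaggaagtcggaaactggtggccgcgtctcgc

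The 3 subunits of RPA, the heterotrimer that binds single-stranded DNA, took 3 courses. RPA3, the smallest, had 2233, 2265 and 2219 in entinostat, against 1604, 1667 and 1708 in DMSO at 48 h, and 2219.5, 2167 and 2204 in entinostat, against 1844, 1717 and 1902 in DMSO at 24 h. It stood above DMSO on all entinostat arrays, with log2 fold changes of 0.43 (standard error 0.05, BH-adjusted p = 3.75e-05) and 0.27 (BH-adjusted p = 0.00152), the highest value of any member at 48 h. RPA1, the largest subunit and the main DNA binder, had 1267, 1289 and 1301 in entinostat, against 1473, 1440.0 and 1521 in DMSO at 48 h, below DMSO on all arrays. At 24 h it had 1779.6, 1844 and 1796 in entinostat, against 1371, 1476 and 1484 in DMSO, above DMSO on all arrays. Its log2 fold changes were -0.20 (BH-adjusted p = 0.00858) and 0.32 (BH-adjusted p = 0.000318), both past the threshold in opposite directions. RPA2, the middle subunit, had 613, 588 and 634 in entinostat, against 739, 681 and 712 in DMSO at 48 h, and 761, 731 and 779 in entinostat, against 781, 777 and 718 in DMSO at 24 h. It was apart at 48 h alone, with -0.22 (BH-adjusted p = 0.0121) against -0.0024 at 24 h (BH-adjusted p = 0.984).

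Of the enzymes that finish Okazaki fragments, LIG1, the DNA ligase, had 239.6, 237 and 261 in entinostat, against 343, 343 and 350.3 in DMSO at 48 h, and 308, 302 and 316 in entinostat, against 359, 319.7 and 362 in DMSO at 24 h. All its entinostat arrays lay below those in DMSO at both times. The log2 fold change of -0.49 at 48 h passed (standard error 0.06, BH-adjusted p = 4.97e-05) and that of -0.16 at 24 h did not (BH-adjusted p = 0.0664). FEN1, the flap endonuclease, had -0.25 at 48 h (BH-adjusted p = 0.0833), with 1 entinostat array at 2526 and the others at 3245 and 3440, and 0.01 at 24 h. Its second probe set was lower at 48 h, at -0.22 (BH-adjusted p = 0.00817).

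Nucleotide supply was lower at 48 h in 4 of 5 genes. TYMS, thymidylate synthase, which makes dTMP, had 3046, 2959 and 3300.4 in entinostat, against 5293, 5395 and 5488 in DMSO at 48 h. At 24 h it had 3959, 3577 and 3764 in entinostat, against 5217, 4872 and 5630.0 in DMSO. TYMS, whose window holds a TTTCCCGC site, was far below DMSO at both times, with log2 fold changes of -0.80 (standard error 0.07, BH-adjusted p = 1.77e-06) and -0.47 (BH-adjusted p = 0.000148). RRM2, the small subunit of ribonucleotide reductase that cycles with S phase, fell by 0.53 on the log2 scale at 48 h (BH-adjusted p = 0.000488) and by 0.28 at 24 h (BH-adjusted p = 0.0276), and 6 of 12 refits lost the call at 24 h. RRM1, its large subunit, had -0.28 at 48 h (BH-adjusted p = 0.0471), lost in 9 of 12 refits, and -0.06 at 24 h. TK1, the thymidine kinase of the salvage pathway, had 517, 628 and 672 in entinostat, against 851, 922 and 824 in DMSO at 48 h and 884, 1051 and 972 in entinostat, against 966, 925 and 1014 in DMSO at 24 h. Its arrays were apart at 48 h, with -0.52 (BH-adjusted p = 0.0011), and overlapped at 24 h, with -0.0015 (BH-adjusted p = 0.994). DUT, the dUTPase that keeps uracil out of DNA, had 0.10 and 0.02, and its intensities of 5687 to 5830 in entinostat at 48 h lay above the 5385 to 5408 in DMSO without passing (BH-adjusted p = 0.133).

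**Figure D3:**
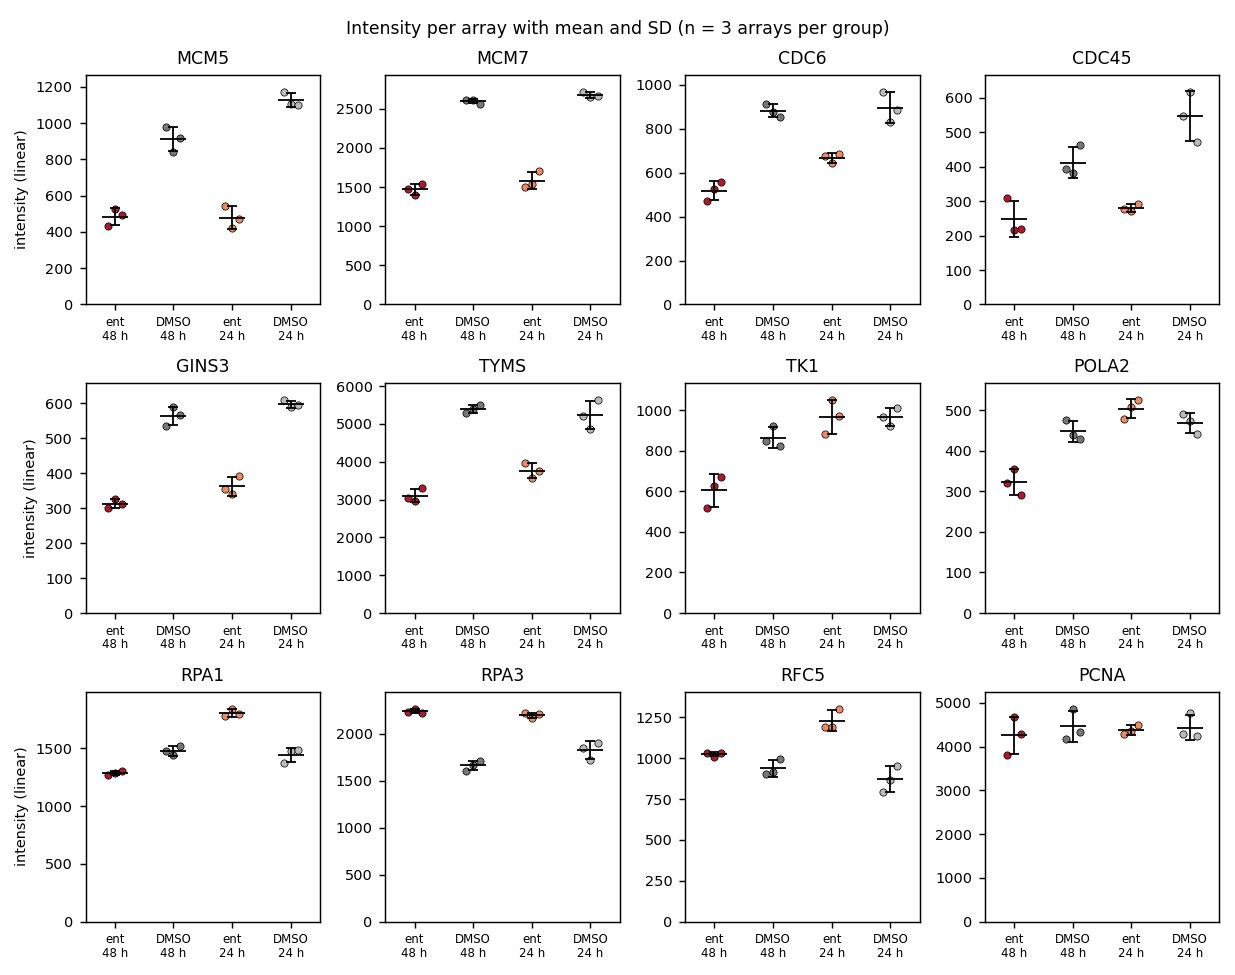
Linear intensity (y axis, from 0) on each of the 3 arrays per group for 12 members, with the mean (line) and SD (bars), in entinostat (ent) and DMSO at 48 h and at 24 h. MCM5, MCM7, CDC6, CDC45, GINS3 and TYMS are lower in entinostat at both times, TK1 and POLA2 at 48 h, RPA1 lies on opposite sides of DMSO at 48 h and 24 h, and the arrays of PCNA overlap.

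The plot of intensities per array shows these courses side by side. The entinostat arrays of MCM5 and MCM7 overlapped between the times, and those of GINS3 were all lower at 48 h than at 24 h, by a log2 difference that did not pass (-0.21, BH-adjusted p = 0.0626). TK1, POLA2 and RPA1 stood apart between the times in entinostat and overlapped or nearly so in DMSO.

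To ask whether the effect of entinostat itself differed between the times, the interaction of treatment and time was tested. It passed for 3 members, all with a lower log2 fold change at 48 h than at 24 h. Of all genes, 1.13% passed in that direction and 0.794% in the other. At a mean log2 of 8 or more, 2.16% of genes passed in that direction, against 6.82% of members at that level. Without adjustment, 22 members had a limma p under 0.05, a count that was not made over all genes. RPA1 had an interaction of -0.52 on the log2 scale (standard error 0.07, BH-adjusted p = 0.00582), POLA2 of -0.58 (BH-adjusted p = 0.0287) and ORC3 of -0.53 (BH-adjusted p = 0.0416). The call of RPA1 was kept in all 12 refits without 1 array, that of POLA2 was lost in 9 and that of ORC3 in all 12. ORC3 had 581, 484 and 579.9 in entinostat, against 751, 669 and 736 in DMSO at 48 h, and 763, 827 and 831 in entinostat, against 721, 710.4 and 767 in DMSO at 24 h. It was apart at 48 h and overlapped at 24 h. Next by adjusted p came ORC5 at -0.45 (BH-adjusted p = 0.068), GMNN at -0.27 (BH-adjusted p = 0.0814) and TK1 at -0.52 (BH-adjusted p = 0.0898), which did not pass. Of the 50 interaction values 39 lay below 0 (78%), against 51.7% of all genes, and their median was -0.16, against -0.01.

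The times were also compared within each treatment. In entinostat, 13 members were lower at 48 h than at 24 h and none was higher. In either direction, 26 had an unadjusted limma p under 0.05. Of all genes, 6.34% were lower and 3.96% higher. At a mean log2 of 8 or more, 11.8% of genes were lower, against 29.5% of members at that level. In DMSO none passed in either direction by limma (6 at an unadjusted p under 0.05), where 0.243% of all genes were lower and 0.217% higher. The counts at an unadjusted p were not made over all genes, and the shares are at the adjusted threshold. The 13 genes were ORC3, ORC5, CDC6, GMNN, DBF4, POLA2, RFC2, RFC5, RPA1, RPA2, LIG1, TYMS and TK1. In the refits without single arrays, the call of DBF4 was lost in 11 of 12, that of RFC5 in 9, that of GMNN in 5 and that of TYMS in 4, and 7 of the 13 were kept in every refit and setting. TK1 had the lowest log2 difference, -0.68 (BH-adjusted p = 0.00134), followed by POLA2 at -0.65 and ORC3 at -0.56. No subunit of the MCM ring was among them, and their 6 values lay between -0.15 and 0.02. The comparisons in entinostat and in DMSO share no array with each other, but each shares its arrays with the comparisons of entinostat with DMSO.

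**Figure D4:**
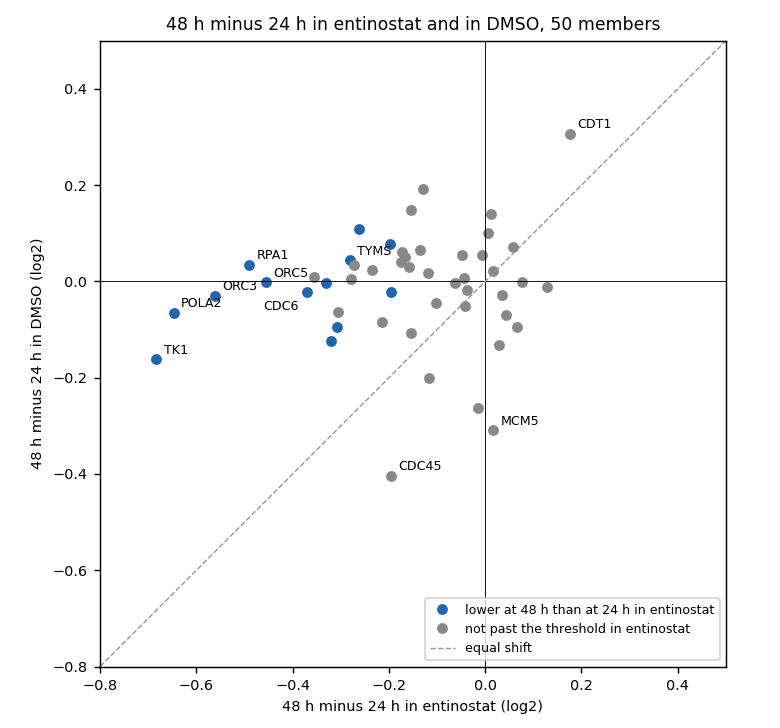
Log2 difference of 48 h minus 24 h in entinostat (x axis) and in DMSO (y axis) for the 50 members, with the dashed line where both are equal. The 13 blue genes, lower at 48 h than at 24 h in entinostat, lie left of 0 with small values in DMSO, and MCM5 and CDC45 lie below 0 on the DMSO axis.

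In the plot of shifts between the times, TK1, POLA2, ORC3, RPA1 and ORC5 lie farthest to the left. MCM5 and CDC45 had -0.31 and -0.40 in DMSO (BH-adjusted p = 0.218 and 0.254) and CDT1 had 0.31 (BH-adjusted p = 0.0595), so for these 3 genes the DMSO level itself moved by an amount that did not pass.

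Genes with several probe sets allow the changes to be read again on the same arrays. Of all 92 probe sets, 48 were lower and 5 higher at 48 h, and 28 lower and 10 higher at 24 h. The shares over all 54613 probe sets were not counted, so these counts only describe the members. The second probe set of MCM5 gave -0.66 and -0.84, that of MCM7 -0.91 and -1.02, and that of GINS3 -0.84 and -0.85, for 48 h and 24 h in turn, all past the threshold. The second of 3 probe sets of RPA1 gave an interaction of -0.68 (BH-adjusted p = 0.0123), in the direction of the first. The third did not pass, and the mean over the 3 gave -0.41, smaller in size than both.

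**Figure D5:**
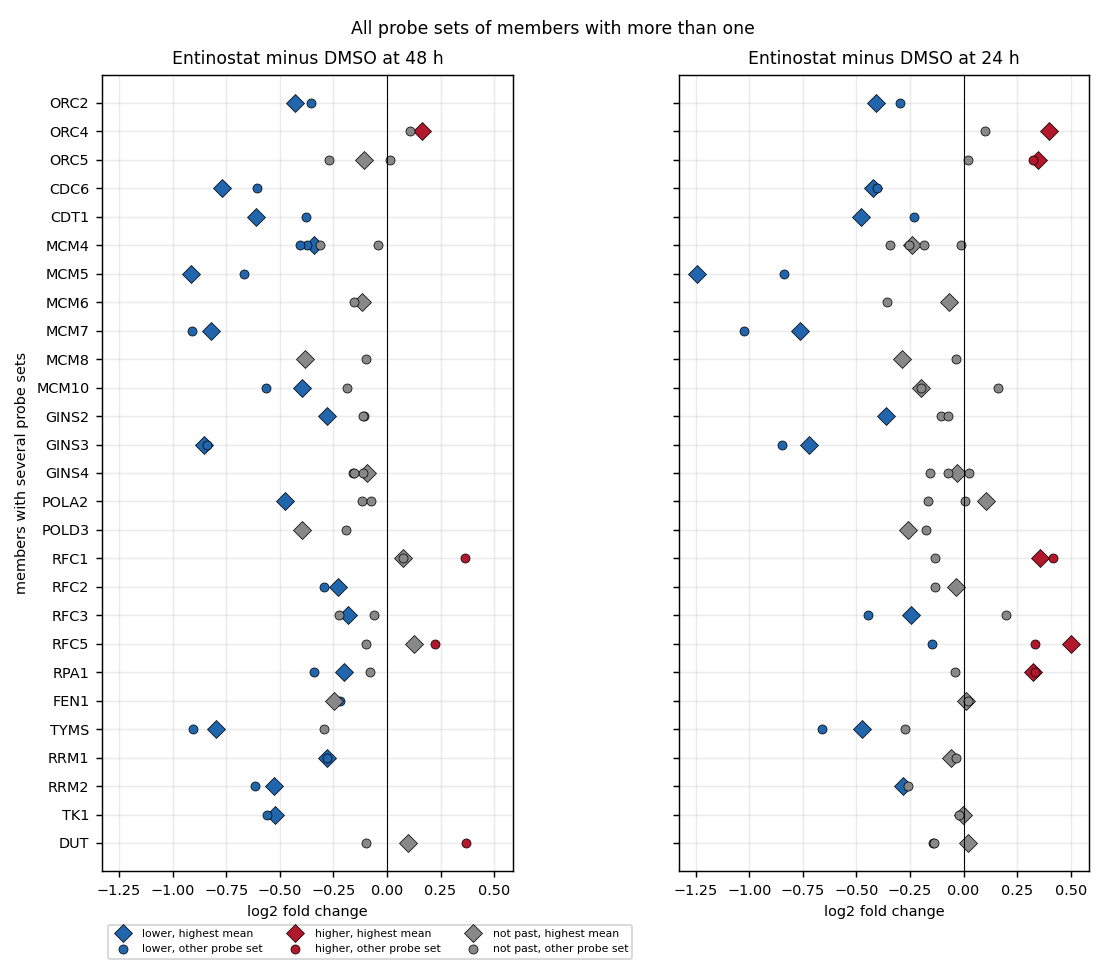
Log2 fold change of entinostat over DMSO (x axis) at 48 h (left) and 24 h (right) for every probe set of the members that have more than 1 (y axis). Diamonds are the probe sets with the highest mean, used in the text, circles the others, and blue, red and grey mark lower, higher and not past. RFC5 at 24 h has 2 red marks and 1 blue.

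As the plot of all probe sets shows, they did not always move alike. RFC5 was the only member with probe sets past the threshold in opposite directions at the same time, with 0.50 and 0.34 on 2 of them and -0.15 on the other at 24 h. The second probe set of DUT was higher at 48 h, at 0.37, and its last was lower at 24 h, at -0.14. The second probe set of RFC1 was higher at both times, at 0.36 and 0.41, and its last gave 0.08 and -0.13. That last probe set of RFC1 and both further ones of POLA2 were dim, with group means of 68.0 to 92.2, and those of POLA2 gave -0.11 and -0.08 at 48 h, where neither passed.

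The wider pathway was read from a pair of gene lists. Of 36 further partners of the fork and of chromatin assembly, 35 were measured, and 10 were lower and 2 higher at 48 h (16.6% and 17.3% of all genes), 5 lower and 4 higher at 24 h (15% and 18.2% of all genes), with medians of -0.10 and -0.01. At 24 h neither count exceeds these shares. TOPBP1, a scaffold of helicase activation, fell by 0.41 at 48 h and by 0.33 at 24 h, and MCMBP, which binds MCM proteins, fell by 0.41 and by 0.21. ASF1B, a histone chaperone, rose, with 363, 387 and 408 in entinostat, against 313, 286 and 291 in DMSO at 48 h and 606, 559.6 and 695 in entinostat, against 273, 257 and 281 in DMSO at 24 h. Its log2 fold changes were 0.38 and 1.19 (BH-adjusted p = 0.00303 and 3.63e-07). RNASEH2B, a subunit of the nuclease that removes ribonucleotides from DNA, fell by 0.38 and by 0.50. DNMT1, the maintenance DNA methyltransferase, had 0.19 at 48 h (BH-adjusted p = 0.687), with a spread of 759 to 1951 in DMSO, and was higher at 24 h, at 0.85 (BH-adjusted p = 0.0321).

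Of 35 further genes of nucleotide synthesis and salvage, 32 were measured, and 14 were lower and 1 higher at 48 h, 13 lower and 5 higher at 24 h, set against the same shares of all genes, to which the 5 higher genes come close. Their medians were -0.16 and -0.14. CTPS2, a CTP synthase, had 129, 136 and 144 in entinostat, against 276, 302 and 302 in DMSO at 48 h and 142, 141 and 160.1 in entinostat, against 341, 289 and 317 in DMSO at 24 h. Both log2 values, -1.11 at 48 h and -1.10 at 24 h, passed (BH-adjusted p = 4.18e-07 and 5.31e-07). TK2, the mitochondrial thymidine kinase, fell by 1.00 on the log2 scale at 48 h and by 0.51 at 24 h. DTYMK, which makes dTDP from the product of TYMS and TK1, fell by 0.74 and by 0.68, and CAD, which starts pyrimidine synthesis, by 0.70 and by 0.59. SAMHD1, which breaks down deoxyribonucleotides, was the 1 gene of the list that was higher at both times, with 402, 426 and 413 in entinostat, against 230.4, 205 and 193 in DMSO at 48 h and log2 fold changes of 0.99 and 0.90 (BH-adjusted p = 1.17e-06 and 2.8e-06). The purine enzymes PAICS and PFAS fell by 0.17 and 0.24 at 48 h and by 0.25 and 0.34 at 24 h, while GART and ATIC passed at neither time.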

How the data were processed

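RNA of HD-MB03 cells was hybridized to 12 Affymetrix Human Genome U133 Plus 2.0 arrays, 3 biological replicates in each of 4 groups. The deposited intensity values were made by the authors through GCRMA normalization, and the study's methods also name a log2 step, but the values deposited are linear, with a background left in them, and they may be another export than the one the study analysed. The number of arrays limits the precision, and p-values measure the spread between these replicates only. The rule for the members names genes and uses no measured value, but the members, gene lists and tests were chosen with earlier results of these data known.

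After 62 control probe sets were left out, log2 was taken of the intensities of 54613 probe sets, in which 2 cells were empty. The 12 arrays were fitted together by limma 3.58.1 in R 4.3.3, with each group as a coefficient, and with time as an additive term for the comparison over both times. P-values were adjusted by the Benjamini-Hochberg method across the probe sets, and values under 0.05 passed. Symbols were updated through the Entrez ID to RefSeq GRCh38.p14, and 41091 probe sets had a single symbol. For each of 19775 genes the probe set of the highest mean log2 was used, a choice made without the effect, as 10523 genes have several. Per-array values were given by rule for the largest fall and rise of each role and for members past the interaction test, and the other members, as well as the genes of the 2 pathway lists, were named after their values were seen. Genes of these lists without a match were not analysed here.

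Same-numbered arrays of different groups were checked for shared deviations. The correlations of the 18 pairs ran from -0.06 to 0.20 and 4 were over 0.1, while pairs with different numbers ran from -0.21 to 0.07. The main fit read the numbers as names and not as pairs, and whether same-numbered arrays share a batch was not tested. With a replicate block in the fit, 31 members were lower at 48 h and 19 at 24 h, against 32 and 18. The alternatives were other choices of probe set, centred arrays, quantile normalization and 30 subtracted from every intensity. Others were a filter at a mean log2 of 7, a prior with a trend, separate fits per pair of groups and a replicate block. A threshold of 0.01 was also used, and each array was left out in turn. The procedure was tested on simulated data. The study's assays of protein, drug response and DNA damage were not used here.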

Additional observations from a re-analysis of the deposited data

Results flagged for a closer look

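The interaction test across all probe sets was read for the 50 members and for the 35 and 32 measured genes of the pathway lists. At an adjusted p under 0.05 from limma, 7 had an effect of entinostat that differed between the times. All 7 values were negative, so the log2 fold change was lower at 48 h than at 24 h, which can be a larger fall or a smaller rise. Of all 19775 genes, 223 (1.13%) passed in that direction and 157 (0.794%) in the other. Among genes at a mean log2 of 8 or more these shares were 2.16% and 1.42%. RPA1 had an interaction of -0.52 (adjusted p = 0.00582), as its log2 fold change was -0.20 at 48 h and 0.32 at 24 h. POLA2 had -0.58 (adjusted p = 0.0287), with -0.48 at 48 h and 0.11 at 24 h. ORC3 had -0.53 (adjusted p = 0.0416), with -0.39 at 48 h and 0.14 at 24 h.

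Among the fork and chromatin partners, ASF1B had an interaction of -0.82 (adjusted p = 0.00693), as its log2 fold change was 0.38 at 48 h and 1.19 at 24 h. RNASEH2A, the catalytic subunit of RNase H2, had -0.65 (adjusted p = 0.0177), with -0.65 at 48 h and 0.0024 at 24 h. TIMELESS, a protein of the fork protection complex, had -0.37 (adjusted p = 0.0283), with -0.44 at 48 h and -0.06 at 24 h. In nucleotide salvage, TK2 had -0.49 (adjusted p = 0.0355), as it fell by 1.00 on the log2 scale at 48 h and by 0.51 at 24 h. In refits without single arrays, the interaction of ORC3 was lost in all 12, that of POLA2 in 9 and that of RPA1 in 0. The interactions of ASF1B, RNASEH2A, TIMELESS and TK2 were not examined in these refits. Single arrays that stand apart within a group of 3 were not looked for.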

How the results depend on the processing

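The count of 32 members lower at 48 h stayed between 24 and 34 over the alternatives run, and between 25 and 32 when each array was left out in turn, with the lowest count without entinostat 48 h replicate 2. The 18 members lower at 24 h stayed between 15 and 19, and between 16 and 18. Members higher at 48 h were 2, and 1 without _x_at and _s_at probe sets, with centred arrays, with quantile normalization, with 30 subtracted, with separate fits, in the fit with a replicate block and at a threshold of 0.01, and 1 to 2 without single arrays. ORC4 is the call lost in these. The replicate block changed no count of members lower by more than 1.5 times. Members higher over both times were 4, and 2 without _x_at and _s_at probe sets. The interaction counted 3 lower members, 6 with the mean of a gene's probe sets, 0 with 30 subtracted, 5 with the filter at a mean log2 of 7, 1 at a threshold of 0.01, and 1 to 3 without single arrays. No member was higher at 48 h than at 24 h in DMSO, and 1 was with the mean of probe sets and with the filter. Members lower at 48 h than at 24 h in entinostat were 13, between 9 and 17 over the alternatives run, and 9 to 12 without single arrays. Without _x_at and _s_at probe sets, RFC1 at 24 h was -0.13 in place of 0.36. Of the 34 calls at 48 h, 24 were kept in every refit and setting, and of the 24 at 24 h, 18. Where the cause of a change is not given by the setting itself, the cause was not tested. The signal left from the background limits the fold changes of dim probe sets.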
